A study of Mus musculus with 48 samples.

Results

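The genes described here are 9 transcription factors that set or mark the identity of microglia: Sall1, Maf, Irf8, Spi1, Mef2a, Mef2c, Cebpd, Runx1 and Mycl. They were chosen by gene name and make up 9 of the 48526 genes in the table, each matched by 1 row. They were measured by bulk RNA sequencing in microglia sorted from the hippocampus of C57BL/6 mice on Cx3cr1, a chemokine receptor carried by microglia and by other macrophages of the brain. Irradiated mice received 1 whole-brain X-ray dose of 8 Gy on postnatal day 21, and sham mice served as controls. Separate animals were taken 2 h, 6 h, 1 day and 1 week later, with 6 sham and 6 irradiated animals at each time, so each of the 48 libraries is 1 animal. The labels name no transgene and no drug, and give neither the sex nor the sham handling.

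Microglia arise from yolk sac macrophages and keep their identity through transcription factors that act in layers. PU.1, the product of Spi1, opens macrophage enhancers together with IRF8, RUNX1 and C/EBP factors. SALL1, MAF and MEF2 factors then add the programme of the microglia that live in a healthy brain, which depends on signals of that brain such as TGF-beta.

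Expression is given as reads per 1000000 reads on genes (RPM), which compares libraries for 1 gene but not levels between genes. The libraries held between 175382 and 3856777 such reads (median 2212424). Libraries under 1000000 were sham 1 day library 6 (175382), irradiated 2 h library 2 (395761) and sham 6 h library 4 (731819). Summed over 10 microglia markers, the libraries had 25670 to 48970 RPM. Single markers differed in level, with P2ry12 at 1797 to 6941 RPM and Tmem119 at 3020 to 10700 RPM. Trem2 had 206.9 to 783.2 RPM and Aif1, with the lowest median, 44.9 to 845.0 RPM. Summed markers of other cells were 11.7 to 76.4 RPM for 10 lymphocyte genes, 20.7 to 133.1 RPM for 10 endothelial and mural genes and 73.3 to 336.2 for 10 oligodendrocyte lineage genes. Higher sums belonged to 8 markers of perivascular macrophages, which also carry Cx3cr1, at 431.9 to 1431 RPM. Markers of neurons (9 genes) summed to 389.7 RPM in 1 irradiated 1 week library and to at most 132.8 in the others. The 6 h sham libraries were of 2 kinds. On the first principal component (18.0% of the variance) libraries 1 to 4 had values of -48.23 to -55.55, among those of the 2 h groups, whereas libraries 5 and 6 had values of 14.43 and 17.32, among those of later groups. For that reason each 6 h change of a factor or of another named gene is also given against libraries 5 and 6 alone. Mitochondrial genes held 3.05 to 9.34% of reads in sham and 6.14 to 14.6% in irradiated libraries at 2 h, and at 1 day 1.53 to 4.76% and 1.52 to 3.19%. The sham 2 h libraries were split too, with 3.05 to 4.47% in libraries 1 to 3 and 7.03 to 9.34% in 4 to 6. The irradiated 2 h libraries were not, with 9.20 to 14.6% and 6.14 to 12.3%. At 1 week the shares were apart, 1.42 to 2.36% in sham and 2.56 to 4.38% in irradiated libraries. At 6 h they were 5.88 to 7.12% in sham libraries 1 to 4, 3.09 to 3.27% in sham libraries 5 and 6 and 2.35 to 4.34% in irradiated libraries. With mitochondrial genes left out of the totals, 4, 6, 2 and 0 factors passed at the 4 times, as with them. The shares of all genes that passed with these totals are not given here. In bulk samples, fewer cells of a type and less RNA per cell cannot be told apart.

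All 9 genes passed the filter on low values and were tested. Changes are irradiated minus sham on the log2(RPM + 1) scale with the standard error after ±, and adjusted p values (limma, threshold 0.05) were taken over the 11076 genes tested. Positions are on GRCm38. Sall1 (chr8:89027235-89044162), Maf (chr8:115682942-115707794) and Irf8 (chr8:120736358-120756694) lie on chromosome 8, and Spi1 (chr2:91082390-91115756) on chromosome 2. Mef2a (chr7:67231163-67372858) and Mef2c (chr13:83504034-83667080) lie on chromosomes 7 and 13. Cebpd (chr16:15887286-15891031) and Runx1 (chr16:92601466-92826149) lie on chromosome 16, and Mycl (chr4:122995652-123002485) on chromosome 4. Mef2a overlaps Lysmd4 on the other strand, and the genes that overlap Mef2a had a mean of 50.2 RPM in all. Cebpd overlaps Spidr (6.86 RPM) and Runx1 overlaps Gm26626 (1.40 RPM). The strand setting of the authors' counting is not given in the sources used here, so reads of these pairs cannot be told apart with certainty.

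RefSeq start-site windows of 300 bases (GRCm38.p6) were found for 6 of the 9 genes: Sall1, Irf8, Mef2a, Mef2c, Runx1 and Mycl. The PU.1 core GAGGAA, searched on both strands, was in 4 of their 12 windows and in 28.3% of all 32851 windows of that length. These 4 windows belong to Mef2a, Mef2c and Runx1, and the windows of Sall1, Irf8 and Mycl held no match. The 4 windows with a match are printed 5′ to 3′ on the strand of the gene, with the match in capitals. In Runx1 the match reads TTCCTC because it lies on the opposite strand.
Mef2a window 1, chr7:67372809-67373108, minus strand: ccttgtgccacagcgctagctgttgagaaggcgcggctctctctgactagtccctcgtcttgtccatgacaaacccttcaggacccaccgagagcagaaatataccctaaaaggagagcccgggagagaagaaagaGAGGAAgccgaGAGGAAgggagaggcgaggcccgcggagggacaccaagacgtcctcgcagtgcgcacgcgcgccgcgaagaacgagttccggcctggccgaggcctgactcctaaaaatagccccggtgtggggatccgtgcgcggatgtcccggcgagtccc
Mef2c window 1, chr13:83503784-83504083, plus strand: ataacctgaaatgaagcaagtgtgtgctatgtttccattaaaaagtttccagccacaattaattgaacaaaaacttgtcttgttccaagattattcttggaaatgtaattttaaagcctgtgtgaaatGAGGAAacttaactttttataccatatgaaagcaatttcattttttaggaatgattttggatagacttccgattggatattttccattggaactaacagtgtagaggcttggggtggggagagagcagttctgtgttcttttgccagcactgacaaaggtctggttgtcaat
Mef2c window 2, chr13:83523406-83523705, plus strand: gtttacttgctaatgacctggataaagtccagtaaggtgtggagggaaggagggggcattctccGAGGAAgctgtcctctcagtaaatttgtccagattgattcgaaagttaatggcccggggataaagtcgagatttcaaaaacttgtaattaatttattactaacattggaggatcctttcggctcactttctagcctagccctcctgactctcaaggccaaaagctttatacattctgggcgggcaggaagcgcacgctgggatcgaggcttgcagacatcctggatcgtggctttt
Runx1 window 2, chr16:92697280-92697579, minus strand: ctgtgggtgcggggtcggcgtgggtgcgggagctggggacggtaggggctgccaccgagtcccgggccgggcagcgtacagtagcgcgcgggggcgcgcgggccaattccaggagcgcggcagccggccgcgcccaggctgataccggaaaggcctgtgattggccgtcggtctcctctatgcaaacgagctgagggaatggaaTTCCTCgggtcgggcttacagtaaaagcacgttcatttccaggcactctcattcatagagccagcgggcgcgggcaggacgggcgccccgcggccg
Other searched letters were rarer in these 12 windows. The RUNX core TGTGGT was in 1 window (16.8% of all windows) and the MAF-type core TGCTGA in 2 (19.5%). The E-box CACGTG was in 1 (7.15%), whereas the C/EBP-type TTGCNNAA (10.8%) and the MEF2-type CTATTTAT (1.10%) were in 0 of the 12. Only the letters given were searched, so other forms of these sites were not counted and may be present in the windows. A match describes letters in the window and not binding.

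At 2 h, 4 of the 9 factors fell after irradiation and 0 rose: Sall1, Maf, Mef2a and Mef2c. Over all genes tested, 5.47% fell and 5.51% rose. At 6 h, 5 fell (Sall1, Mef2a, Mef2c, Cebpd and Mycl; 9.89% of all genes fell) and 1 rose (Runx1; 14.0% rose). At 1 day, 2 fell, Sall1 and Mycl (2.27% of all genes fell), and 0 rose (3.63% rose). At 1 week, 0 of 9 passed in either direction (1.91% of all genes fell and 2.26% rose). The median change of the 9 factors was -0.45, -0.37, -0.18 and -0.27 at the 4 times, beside -0.031, 0.076, 0.019 and 0.073 over all genes. With sham libraries 5 and 6 alone, 0 of 9 passed at 6 h (1.76% of all genes rose and 0.659% fell). That fit had 2 sham libraries at 6 h, and the standard errors were larger for all 9 factors. The falls of Mef2c (-0.46) and Mycl (-1.37) were larger than with all sham libraries (-0.37 and -1.06), and the changes of the other factors were closer to 0.

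The irradiated and sham ranges did not overlap for 3 factors at 2 h, Maf, Mef2a and Mef2c (5.35% of all genes). They did not overlap for Sall1 and Runx1 at 6 h (8.84%), for 0 factors at 1 day (3.32%) and for Irf8 at 1 week (3.40%).

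**Figure D1:**
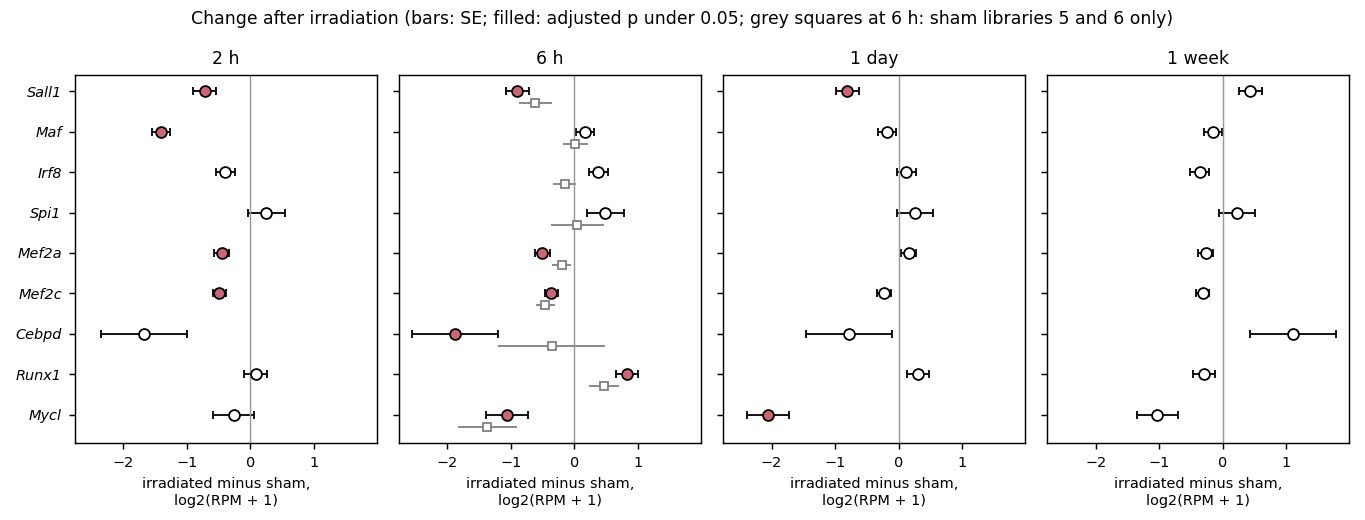
Change of each factor after irradiation at the 4 times, irradiated minus sham on the log2(RPM + 1) scale (circles, bars are standard errors, filled where the adjusted p was under 0.05), with grey squares for 6 h against sham libraries 5 and 6 alone. The filled circles lie left of 0 for 4 factors at 2 h and 2 at 1 day, and the grey squares lie closer to 0 than the circles for 7 of 9 factors at 6 h.

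Spi1 encodes PU.1, the ETS factor that macrophages cannot form without. At 2 h it had 89.2 to 166.1 RPM in sham (median 109.3) and 98.5 to 211.6 in irradiated libraries (median 138.0). The medians were 109.8 and 172.1 at 6 h, 108.6 and 113.5 at 1 day and 146.2 and 171.4 at 1 week. The groups overlapped at each time, and the change did not pass the test at any of them: 0.25 ± 0.29 (adjusted p = 0.673), 0.48 ± 0.29 (0.228), 0.26 ± 0.29 (0.702) and 0.22 ± 0.29 (0.735). Against sham libraries 5 and 6 alone the 6 h change was 0.045 ± 0.42 (adjusted p = 0.996). In the shallow sham 1 day library 6 Spi1 stood at 17.1 RPM, and without that library the 1 day change turned to -0.19.

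Irf8 encodes the interferon regulatory factor that binds DNA with PU.1 and that microglia need to develop. At 2 h it had 579.2 to 1046 RPM in sham (median 709.1) and 411.9 to 719.3 in irradiated libraries (median 585.9), a change of -0.39 ± 0.15 (adjusted p = 0.0751). In libraries 1 to 3 of that time Irf8 had 764.9 to 1046 RPM in sham and 411.9 to 719.3 in irradiated mice. In libraries 4 to 6 it had 579.2 to 653.2 and 570.5 to 598.4 RPM, so the groups lay apart in the first set and overlapped in the second. At 6 h the sham median was 653.8 RPM and the irradiated median 970.1, a change of 0.37 ± 0.15 (adjusted p = 0.0549). Without sham 2 h library 4 (adjusted p = 0.0339) or irradiated 2 h library 1 (0.0431) the 2 h change passed. The 6 h change passed without sham library 5 (0.014) or 6 (0.00875) or irradiated library 2 (0.047) or 3 (0.0415). With all libraries neither value passed the test, but their difference did (0.77 ± 0.21, adjusted p = 0.0121; 10.8% of all genes differed between 2 h and 6 h). With sham libraries 5 and 6 alone the 6 h change was -0.15 and the difference 0.24 (adjusted p = 0.893). At 1 week all 6 irradiated libraries (849.5 to 1005 RPM) were below all 6 sham libraries (1061 to 1337 RPM), a change of -0.37 ± 0.15 (adjusted p = 0.153). The test with all 8 groups did not pass there, whereas a fit to the 12 libraries of 1 week alone did (adjusted p = 0.0243).

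Runx1 encodes a runt-domain factor of blood and yolk sac macrophage development that binds with the partner CBFB. At 6 h it had 130.1 to 260.1 RPM in sham (median 179.6) and 304.4 to 379.6 in irradiated libraries (median 314.7). All irradiated libraries were above all sham libraries, and the change was 0.83 ± 0.18 (adjusted p = 0.000425). Sham libraries 5 and 6, with 213.5 and 260.1 RPM, lay between the other sham and the irradiated libraries, and against them alone the change was 0.46 ± 0.24 (adjusted p = 0.53). The changes were 0.083 ± 0.18 at 2 h, 0.31 ± 0.18 at 1 day and -0.29 ± 0.18 at 1 week, and none of these passed. The difference between 6 h and 2 h was 0.74 ± 0.25 (adjusted p = 0.0449), and 0.38 (adjusted p = 0.848) with sham libraries 5 and 6 alone. It also missed the threshold with median-of-ratios factors (0.0698), totals without mitochondrial genes (0.0807), RPKM + 1 (0.0626) or no library under 1000000 reads (0.0574).

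Cebpd encodes C/EBP delta, a factor that rises within hours of inflammatory or stress signals. It varied more between libraries of a group than the other factors did, with a residual SD of 1.19 on the log2 scale against 0.16 to 0.59 for the other 8 and a median of 0.56 over all genes. At 2 h it had 68.8 to 421.0 RPM in sham (median 218.4), and irradiated libraries held 21.1 to 261.5 RPM (median 43.4). Irradiated libraries 2 and 3, at 257.7 and 261.5 RPM, lay within the sham range and the other 4 below it. The change was -1.68 ± 0.67 (adjusted p = 0.108), and -2.08 without irradiated library 2 (adjusted p = 0.0451) or without library 3 (0.0432). It also passed with voom weights (-1.94, adjusted p = 0.04) and with no library under 1000000 reads (-2.08, adjusted p = 0.0199). At 6 h it ran from 26.2 to 709.2 RPM in sham (median 56.3) and from 13.5 to 36.2 in irradiated libraries (median 22.4), a change of -1.88 ± 0.67 (adjusted p = 0.0376). The groups overlapped, since sham libraries 5 and 6 had 31.1 and 26.2 RPM, and against them alone the change was -0.36 ± 0.84 (adjusted p = 0.982). Without sham library 4, which held 709.2 RPM and is 1 of the shallow libraries, it was -1.26 (adjusted p = 0.166). The call was lost in the same way without sham library 2 or 3 or irradiated library 1, 2, 3 or 4, with adjusted p from 0.0501 to 0.0963. With all libraries it was lost with voom weights (adjusted p = 0.126), with no filter on low values (0.0622) and in a fit to the 12 libraries of 6 h alone (0.0548). At 1 day and 1 week the changes were -0.78 ± 0.67 and 1.10 ± 0.67 and did not pass; irradiated 1 week library 5 held 560.6 RPM beside 27.0 to 60.4 in the other 5. The summed level of 27 immediate early and cell handling genes, all detected, ran from 8215 to 31820 RPM in sham and 8870 to 24950 in irradiated 2 h libraries. In libraries 1 to 3 of that time it was 29360 to 31820 RPM in sham and 18530 to 24950 in irradiated mice. In libraries 4 to 6 it was 8215 to 9661 and 8870 to 11730 RPM, so both 2 h groups were split. At 6 h it was 9899 to 20030 and 10690 to 20250 RPM. Its part in the Cebpd values was not tested.

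**Figure D2:**
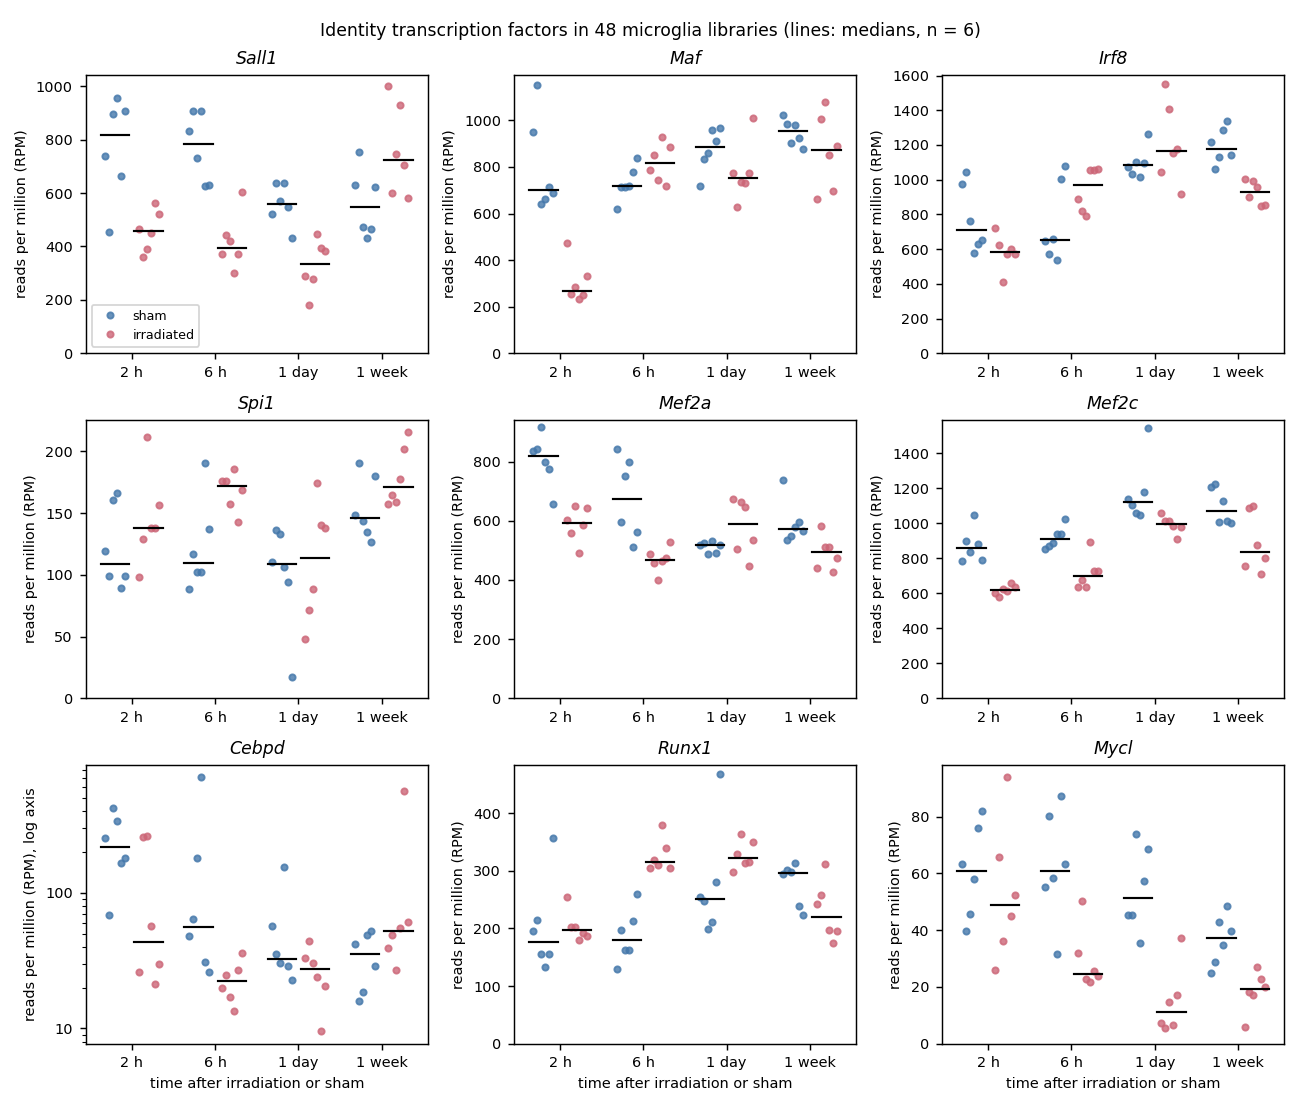
RPM of each of the 9 factors in the 48 libraries by time, with 1 point per library, sham in blue, irradiated in red, and a line at the median of 6 (Cebpd on a log axis). Maf stands apart in the irradiated 2 h libraries (234.9 to 472.4 RPM), and the Cebpd points spread widely within groups.

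Sall1 encodes a zinc-finger repressor that in the brain's immune cells marks microglia and not other macrophages, and whose loss in mice moves microglia away from their resting state. It fell at the first 3 times. At 2 h it had 455.2 to 955.1 RPM in sham (median 818.0) and 361.3 to 564.6 in irradiated libraries (median 458.5), a change of -0.72 ± 0.18 (adjusted p = 0.00468). Only sham library 2 (455.2 RPM) lay within the irradiated range. At 6 h the ranges were apart, 625.0 to 908.3 RPM in sham (median 782.5) and 302.1 to 603.2 in irradiated libraries (median 396.1), and Sall1 fell by 0.90 ± 0.18 (adjusted p = 0.000202). Sham libraries 5 and 6 (625.0 and 630.4 RPM) were above all irradiated libraries too, and against them alone the change was -0.62 ± 0.26 (adjusted p = 0.309). At 1 day it had 433.3 to 639.7 RPM in sham (median 559.0) and 180.4 to 445.7 in irradiated libraries (median 335.8), a change of -0.81 ± 0.18 (adjusted p = 0.00216). The overlap came from sham library 6, the shallowest library.

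At 1 week Sall1 had 432.4 to 755.1 RPM in sham (median 548.4) and 581.1 to 1003 in irradiated libraries (median 725.6), a change of 0.43 ± 0.18 (adjusted p = 0.18). The effect at 1 week differed from that at 1 day by 1.24 ± 0.26 (adjusted p = 0.00184; 5.99% of all genes differed between these times). Summed over 10 microglia markers, all detected, sham libraries had 34270 to 45490 RPM and irradiated libraries 31960 to 43970 at 2 h, with overlap. At 6 h sham libraries had 40820 to 46900 RPM and irradiated libraries 33160 to 37350. The 1 day sums reached 34640 to 44990 and 25670 to 35280 RPM, and at 1 week 38470 to 42270 and 40820 to 48970 RPM. The part of these sums in the Sall1 values was not tested.

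Maf encodes c-MAF, a large bZIP factor of tissue macrophages. It fell at 2 h by 1.40 ± 0.14 (adjusted p = 3.07e-11), from 641.4 to 1151 RPM in sham libraries (median 701.6) to 234.9 to 472.4 RPM in irradiated ones (median 269.5). All irradiated libraries were below all sham libraries. At 6 h the irradiated median was 817.9 RPM beside 717.6 in sham, a change of 0.16 ± 0.14 that did not pass (adjusted p = 0.424), and 0.012 ± 0.20 (adjusted p = 0.997) against sham libraries 5 and 6 alone. The effects at 6 h and 2 h differed by 1.57 ± 0.20 (adjusted p = 3.7e-07), and by 1.42 with sham libraries 5 and 6 alone (adjusted p = 0.000776). At 1 day (-0.18 ± 0.14) and 1 week (-0.15 ± 0.14) the change did not pass either. Beside the 2 h value, the summed level of 7 dendritic cell markers was 8.74 to 39.7 RPM in sham and 52.6 to 88.3 in irradiated 2 h libraries, with Clec9a at 0 in the irradiated ones. Its part in the 2 h values was not tested.

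Mef2a and Mef2c encode MADS-box factors whose sites are common in microglial enhancers. Both fell at 2 h with ranges apart. Mef2a had 655.0 to 915.7 RPM in sham (median 817.3) and 491.4 to 648.7 in irradiated libraries (median 593.8), a change of -0.45 ± 0.12 (adjusted p = 0.00603). Mef2c had 784.8 to 1046 RPM in sham (median 859.3) and 581.2 to 660.0 in irradiated libraries (median 620.3), a change of -0.49 ± 0.11 (adjusted p = 0.000753).

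At 6 h Mef2a fell by 0.51 ± 0.12 (adjusted p = 0.00104), from a sham median of 673.4 RPM (510.8 to 840.7) to an irradiated median of 468.9 (401.4 to 528.6). Against sham libraries 5 and 6 (510.8 and 562.4 RPM) the change was -0.20 ± 0.15 (adjusted p = 0.809). Mef2c fell by 0.37 ± 0.11 (adjusted p = 0.00835), from a sham median of 912.2 RPM (855.6 to 1026) to an irradiated median of 702.0 (636.7 to 894.2). Only irradiated library 4 (894.2 RPM) lay within the sham range. Against sham libraries 5 and 6 (939.9 and 1026 RPM), which were above all irradiated libraries, the change was -0.46 ± 0.15 (adjusted p = 0.101). Once a trend with GC content and gene length was removed, the 6 h change was -0.15 for Mef2a (adjusted p = 0.328) and 0.052 for Mef2c.

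At 1 day Mef2a had 488.4 to 533.2 RPM in sham (median 518.8) and 448.5 to 675.1 in irradiated libraries (median 590.7), a change of 0.16 ± 0.12 that did not pass (adjusted p = 0.514). Its effect at 1 day differed from that at 6 h by 0.67 ± 0.17 (adjusted p = 0.0136; 5.16% of all genes differed), and by 0.36 with sham libraries 5 and 6 alone (adjusted p = 0.711). Mef2c changed by -0.23 ± 0.11 at 1 day (adjusted p = 0.215) and -0.32 ± 0.11 at 1 week (adjusted p = 0.0693), neither of which passed. At 1 week the sham median of Mef2c was 1071 RPM and the irradiated median 838.3, and without irradiated library 2 or 3 the change was -0.38 (adjusted p = 0.025 or 0.0248). Mef2a changed by -0.27 ± 0.12 at 1 week (adjusted p = 0.189).

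Mycl encodes L-MYC, a MYC family member with a role in dendritic cells and other myeloid cells. Its reads ran from 12 to 259 per library. At 2 h it had 39.63 to 81.95 RPM in sham (median 60.7) and 25.87 to 93.84 in irradiated libraries (median 48.8). The 2 h change of -0.26 ± 0.33 did not pass (adjusted p = 0.702). At 6 h it had 31.4 to 87.2 RPM in sham (median 60.9) and 21.7 to 50.3 in irradiated libraries (median 24.7), a change of -1.06 ± 0.33 (adjusted p = 0.0134). Sham libraries 5 and 6 (87.2 and 63.3 RPM) were above all irradiated libraries, and against them alone the change was -1.37 ± 0.46 (adjusted p = 0.126). Against sham libraries 1 to 4 alone it was -0.91 (adjusted p = 0.0509). At 1 day it had 35.3 to 73.9 RPM in sham (median 51.4) and 5.64 to 37.1 in irradiated libraries (median 11.0). Only irradiated library 6 (37.1 RPM) reached the sham range, the others holding 5.64 to 17.1 RPM. Mycl fell by 2.06 ± 0.33 (adjusted p = 9.37e-06), the largest change past the threshold among the 9 factors. At 1 week the sham median was 37.3 RPM and the irradiated median 19.1, a change of -1.03 ± 0.33 that just missed the threshold (adjusted p = 0.0563), and it passed without sham library 1 (0.049) or without irradiated library 4 (0.0465). Beside these values, 7 dendritic cell markers summed to 17.7 to 45.6 RPM in sham and 6.16 to 16.5 in irradiated libraries at 1 day, with ranges apart and with Clec9a and Cd209a at 0 in the irradiated group. At 1 week they summed to 18.7 to 28.2 and 8.54 to 20.8 RPM, with Clec9a at 0 in the irradiated group, and at 6 h to 10.8 to 19.7 and 11.7 to 37.6 RPM. At 2 h, when the change of Mycl did not pass, they summed to 8.74 to 39.7 and 52.6 to 88.3 RPM, with ranges apart. At 1 day, 11 monocyte and neutrophil markers summed to 14.4 to 51.3 RPM in sham and 25.1 to 92.4 in irradiated libraries. S100a8, S100a9, Ngp, Lcn2, Retnlg and Mmp8 were at 0 in both groups, and Ly6c2 and Camp were at 0 in the sham group only. The part of these markers in the Mycl values was not tested.

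The effect of irradiation differed between times for 6 of the 9 factors by an F test over the 4 times (22.7% of all genes): Sall1, Maf, Irf8, Mef2a, Runx1 and Mycl, with adjusted p from 3.15e-07 to 0.0235. Cebpd (0.0539), Mef2c (0.537) and Spi1 (0.936) did not pass. Without sham 6 h libraries 1 to 4, Sall1 (0.0018), Maf (7.56e-06), Mef2a (0.0264) and Mycl (0.0409) passed, and Irf8 (0.133) and Runx1 (0.174) did not.

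The sham animals of the 4 times also differed among themselves, for 6 of the 9 factors by an F test (23.5% of all genes): Sall1, Irf8, Mef2a, Mef2c, Cebpd and Runx1. Sham medians of Irf8 were 709.1, 653.8, 1087 and 1179 RPM from 2 h to 1 week, and those of Mef2c 859.3, 912.2, 1122 and 1071 RPM. Sham medians of Mef2a were 817.3, 673.4, 518.8 and 572.4 RPM, and those of Cebpd 218.4, 56.3, 32.8 and 35.3 RPM. Irf8 and Mef2c thus had their higher sham medians at the later times, and Mef2a and Cebpd their lower ones. These 4 passed without sham 6 h libraries 1 to 4 as well, with adjusted p from 6.04e-05 to 0.0123, whereas Sall1 (0.197) and Runx1 (0.0669) did not. Age and the day of handling cannot be told apart from the time after the sham procedure here.

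Ordered by median over the 8 groups, neighbouring groups overlapped for 7 of the 9 factors at each step. This was not counted over all genes, so how common such gaps are is not known here. Maf was lowest in irradiated 2 h libraries, whose range was apart from the next group, sham 2 h. Mef2a in sham 1 day libraries (488.4 to 533.2 RPM) was apart from sham 1 week libraries (534.0 to 737.2 RPM). Sall1 was lowest in irradiated 1 day and highest in sham 2 h libraries, and Mycl lowest in irradiated 1 day and highest in sham 6 h libraries.

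Ratios of reads within a library do not depend on its depth. Ratios were compared by exact two-sided permutation tests, adjusted over 12 tests. The ratio of Mef2c to Mef2a was 2.28 in sham (1.97 to 2.98) and 1.74 in irradiated libraries (1.52 to 2.04) at 1 day, a factor of 0.763 (exact permutation test, adjusted p = 0.026). At 2 h, when both factors fell, the ratio was 1.09 in sham and 1.06 in irradiated libraries (exact permutation test, adjusted p = 0.782). The ratio of Irf8 to Spi1, whose products bind DNA together, was 7.80 in sham (5.55 to 10.6) and 5.17 in irradiated libraries (3.95 to 6.38) at 1 week. That is a factor of 0.663 (exact permutation test, adjusted p = 0.0325), and the adjusted p rose above 0.05 in 8 of the 12 fits that left out 1 library, namely sham library 1, 3, 4 or 5 or irradiated library 2, 4, 5 or 6 (0.0584 to 0.0844). The log2 difference stayed between -0.69 and -0.51. The other 6 of the 8 tests reported did not pass.

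**Figure D3:**
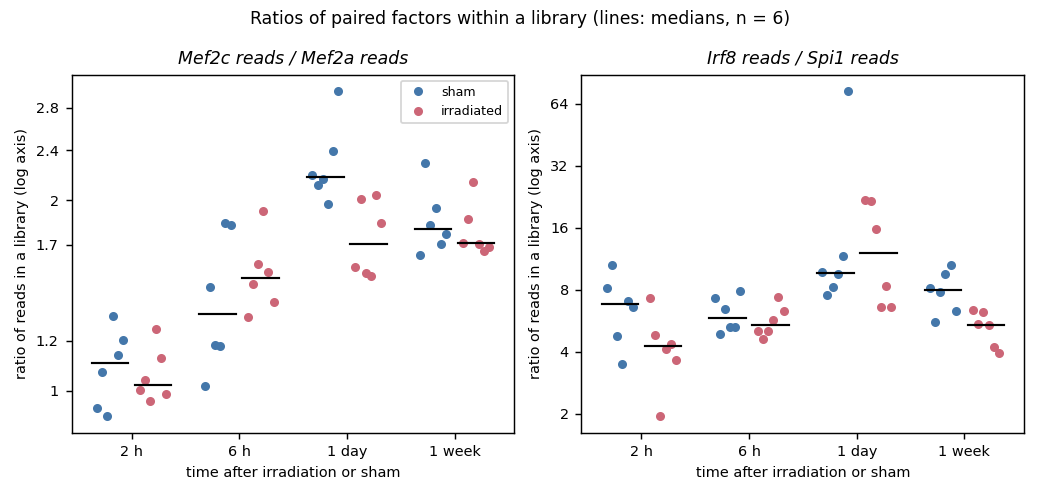
Ratio of reads within each library for Mef2c to Mef2a and Irf8 to Spi1 by time (log axes, sham in blue, irradiated in red, lines at the median of 6). At 1 day the Mef2c to Mef2a points reach 1.97 to 2.98 in sham and 1.52 to 2.04 in irradiated libraries, and at 1 week the Irf8 to Spi1 points reach 5.55 to 10.6 and 3.95 to 6.38.

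Counts of the lists below stand beside 5.51% of all genes tested that rose and 5.47% that fell at 2 h, 14.0% and 9.89% at 6 h, 3.63% and 2.27% at 1 day, and 2.26% and 1.91% at 1 week. The median changes of all genes were -0.031, 0.076, 0.019 and 0.073. Against sham libraries 5 and 6 alone, 1.76% of all genes rose and 0.659% fell at 6 h (median -0.017), and 9.71% of the 2646 genes called with all 6 sham libraries were called in the same direction.

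Among 27 paralogues of the 9 factors, 18 were tested; 1 rose and 4 fell at 2 h, 6 and 1 at 6 h, 2 and 0 at 1 day, and 1 and 4 at 1 week. Their median changes were -0.18, 0.0039, -0.040 and 0.057, and against sham libraries 5 and 6 alone 0 of 18 passed at 6 h. At 2 h Cebpb, an inflammatory C/EBP factor, rose by 1.95 ± 0.38 (adjusted p = 0.00015) from 9.66 ± 5.58 to 55.4 ± 65.0 RPM (SD, n = 6). Cebpd changed by -1.68 ± 0.67 at that time and did not pass in the main fit (adjusted p = 0.108). Cebpa, which sets myeloid fate, fell there by 0.94 ± 0.16 (adjusted p = 2.3e-05), and Sall2, a paralogue of Sall1, fell by 1.05 ± 0.25 (adjusted p = 0.00295). At 6 h Myc rose by 1.06 ± 0.32 (adjusted p = 0.0116), from 61.5 ± 31.7 to 119.7 ± 30.9 RPM (SD, n = 6), with all sham libraries. Against sham libraries 5 and 6 alone the change of Myc was 0.28 ± 0.43 (adjusted p = 0.958). At 1 day the interferon-pathway genes Irf7 (2.49 ± 0.52, adjusted p = 0.000794) and Irf9 (0.92 ± 0.23, adjusted p = 0.00894) rose, while Irf8 changed by 0.12 ± 0.15.

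Among 26 binding partners and cofactors, 24 were tested; 1 rose and 1 fell at 2 h, 4 and 5 at 6 h, 1 and 2 at 1 day, and 1 and 0 at 1 week. Their median changes were 0.14, -0.21, -0.088 and 0.054, and against sham libraries 5 and 6 alone Hdac4 was the 1 gene of the 24 that passed at 6 h. Hdac4, a class IIa histone deacetylase that represses MEF2 targets, rose at all 4 times. It had 53.4 ± 44.9 RPM in sham and 140.2 ± 47.7 in irradiated libraries at 2 h (SD, n = 6). The levels were 33.7 ± 6.65 and 215.5 ± 18.2 at 6 h, 37.4 ± 14.3 and 127.4 ± 21.1 at 1 day, and 32.5 ± 8.88 and 70.1 ± 18.7 at 1 week. Its changes were 1.66, 2.66, 1.80 and 1.08 (each ± 0.28; adjusted p from 1.64e-10 to 0.0174), and 2.62 ± 0.41 at 6 h against sham libraries 5 and 6 alone (adjusted p = 1.77e-05). Hdac9, of the same class, changed at 6 h by -1.24 ± 0.34 with all sham libraries (adjusted p = 0.00576) and by -0.72 ± 0.49 against libraries 5 and 6 alone (adjusted p = 0.745). Mxd4, a partner of MAX in the MYC network, fell at 2 h by 1.19 ± 0.28 (adjusted p = 0.00242). Cbfb, the partner of RUNX1, did not pass at 1 week (-0.36 ± 0.19, adjusted p = 0.317).

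Of 39 other macrophage transcription factors, 34 were tested; 4 rose and 10 fell at 2 h, 7 and 2 at 6 h, 3 and 1 at 1 day, and 0 and 1 at 1 week. Their median changes were -0.26, 0.24, -0.077 and -0.073, and against sham libraries 5 and 6 alone 2 rose and 0 fell at 6 h (median 0.079). At 2 h Nfatc1 (-0.98 ± 0.15, adjusted p = 1.74e-06) and Ikzf1 (-0.86 ± 0.15, adjusted p = 2.1e-05) fell beside Maf. Bhlhe41, a repressor of the basic helix-loop-helix family, rose at 2 h (0.63), 6 h (0.63) and 1 day (0.88), each ± 0.13, and by 0.81 ± 0.18 at 6 h against sham libraries 5 and 6 alone (adjusted p = 0.00508). The inhibitor of helix-loop-helix factors Id2 rose at 6 h by 1.95 ± 0.32 (adjusted p = 9.22e-06), from 297.0 ± 74.8 to 1133 ± 149.0 RPM (SD, n = 6), and its change was 2.13 ± 0.46 against sham libraries 5 and 6 alone (adjusted p = 0.00378).

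Of 30 homeostatic microglia genes, 29 were tested; 1 rose and 9 fell at 2 h, 4 and 12 at 6 h, 1 and 11 at 1 day, and 2 and 2 at 1 week. Their median changes were -0.24, -0.24, -0.31 and -0.10, and against sham libraries 5 and 6 alone 1 rose and 5 fell at 6 h (median -0.44). The prostaglandin-degrading enzyme gene Hpgd fell, with log2 changes of -1.22 ± 0.16, -1.55 ± 0.16 and -1.11 ± 0.16 at 2 h, 6 h and 1 day, and -1.07 ± 0.21 at 6 h against sham libraries 5 and 6 alone (adjusted p = 0.000855). At 1 week Tmem119 (0.66 ± 0.18, adjusted p = 0.0223) and Fcrls (0.72 ± 0.16, adjusted p = 0.00607) rose. Beside these 1 week values, 8 perivascular macrophage markers, all detected, summed to 614.1 to 930.6 RPM in sham and 1026 to 1431 in irradiated libraries, and 10 cycling markers to 58.1 to 109.6 and 118.9 to 414.4 RPM. Their part in the 1 week results was not tested.

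Of 26 myeloid genes known to be bound by PU.1, 25 were in the table and tested; 4 rose and 1 fell at 2 h, 8 and 3 at 6 h, 2 and 2 at 1 day, and 1 and 0 at 1 week. Their median changes were 0.14, 0.18, -0.071 and 0.24, and against sham libraries 5 and 6 alone 2 rose and 0 fell at 6 h (median -0.079). The lysosomal membrane gene Laptm5 rose at all 4 times, by 0.39, 0.81, 0.58 and 0.53 (each ± 0.087), and by 0.63 ± 0.11 at 6 h against sham libraries 5 and 6 alone (adjusted p = 0.000159). Csf1r, the receptor for the microglial survival factors, fell at 1 day by 0.93 ± 0.20 (adjusted p = 0.0014), from 7899 ± 2142 to 4385 ± 1884 RPM (SD, n = 6). Spi1 itself did not pass at any of these times. Of the 27 immediate early and cell handling genes, 26 were tested; 0 rose and 1 fell at 2 h, 3 and 0 at 6 h, 0 and 1 at 1 day, and 0 and 1 at 1 week. Their median changes were -0.22, 0.31, 0.022 and -0.28, and against sham libraries 5 and 6 alone 0 of 26 passed at 6 h.

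The genes most like each factor over the 48 libraries were taken by Pearson's r of log2(RPM + 1) among 6206 genes, as a description, since the libraries share groups, depth and the 6 h sham split. For Sall1 they were Numb (0.90), Golm1 (0.89) and Dock10 (0.86), and for Maf Lpcat1 (0.87), Tgfa (0.87) and Rtn4rl1 (0.87). For Irf8 they were Ckb (0.92), Cmtm3 (0.92) and Myl12b (0.91), and for Spi1 Anks3 (0.81), Coq2 (0.80) and Ermard (0.78). Mef2a was most like Ptprc (0.86), Jmjd1c (0.83) and Kctd12 (0.80), and Mef2c most like Fam117b (0.87), Hacd4 (0.85) and Pdk1 (0.84). Runx1 was most like Dynlrb1 (0.83), Tomm22 (0.83) and Trp53 (0.82). The likeness was lower for Cebpd, with Rnf13 (0.73), Chfr (0.73) and Snx5 (0.68), and for Mycl, with Ppm1l (0.73), Sepp1 (0.72) and Picalm (0.69).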

How the data were processed

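Per the submitters' processing notes, the reads were handled with STAR 2.6.1d, featureCounts 1.5.1, bcl2fastq 2.20.0 and FastQC 0.11.8 on GRCm38 and mm10; the annotation and the strand setting are not given in the sources used here. The deposited values are RPKM made by the authors, scaled by gene span with introns. Each value above 0 was a whole number of reads (100% within 0.001 reads) divided by the total of some library, its own in 2.05% of values, so deposited values were 0.436 to 3.11 times the corrected ones between the 5th and 95th percentile. Reads were recovered, and RPM was taken with each library's own total.

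The 11076 genes that reached 5 RPM in 6 libraries or more were fitted on log2(RPM + 1) in limma 3.58.1 (R 4.3.3; eBayes with trend and robust, 8 groups, 40 residual degrees of freedom), with two-sided tests and Benjamini-Hochberg adjustment. This scale was used because 1 RPKM weighs more on long genes. Ratios of reads (with 1 read added to each) were tested by exact permutation of 6 against 6 libraries (924 assignments), adjusted over 12 tests. Recovery, fit and permutation were tested on simulated data. The main fit did not pair animals by replicate number.

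The 9 factors and all lists were chosen with earlier results of these data known. Named genes are the 9 factors, up to 3 genes per list and time with the smallest adjusted p (values of the same genes at other times are given too), and the 3 most alike per factor with a mean RPM of at least 20; some of these genes, and 4 of the ratio tests, are not reported here. Alternatives changed the pseudocount, filter, scaling, test, samples, replicate block, GC and length trend, or left out 1 library each. The labels name no molecular identifiers.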

Additional observations from a re-analysis of the deposited data

Results flagged for a closer look

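Of 72 groups of 6 libraries (9 factors in 8 groups), 13 held a library whose gap to its neighbour was large for the range of the group. Chance gives this in about 1 of 20 groups only where values are independent and normally distributed. The factors share libraries, and the share over all genes is not given here, so 13 of 72 cannot be weighed against that rate. Sham 1 day library 6, the shallowest, stood apart for 4 factors: Irf8 (1266 RPM, next 1101), Mef2c (1545, next 1178), Runx1 (467.6, next 281.0) and Spi1 (17.11, next 94.27). Cebpd stood apart in sham 6 h library 4 (709.2 RPM, next 181.4), sham 1 day library 4 (153.9, next 56.99) and irradiated 1 week library 5 (560.6, next 60.44). Runx1 did so in sham 2 h library 6 (356.5 RPM, next 213.9) and irradiated 2 h library 1 (254.1, next 202.6). Mycl did so in irradiated 6 h library 2 (50.27 RPM, next 31.83) and irradiated 1 day library 6 (37.12, next 17.1). Mef2a stood apart in sham 1 week library 1 (737.2 RPM, next 594.5) and Mef2c in irradiated 6 h library 4 (894.2, next 730.1).

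The effect of irradiation differed between adjacent times for 5 factors by a limma contrast of the effects themselves. From 2 h to 6 h it rose for Maf by 1.57 (adjusted p = 3.7e-07), for Irf8 by 0.77 (0.0121) and for Runx1 by 0.74 (0.0449). From 6 h to 1 day it rose for Mef2a by 0.67 (0.0136), and from 1 day to 1 week for Sall1 by 1.24 (0.00184). With sham 6 h libraries 5 and 6 alone, the values for Maf (1.42) and Sall1 (1.24) passed and those for Irf8 (0.24), Runx1 (0.38) and Mef2a (0.36) did not.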

How the results depend on the processing

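At 2 h and 1 day, the 4 and 2 factors that passed did so under each alternative run except the deposited RPKM without correction, where 0 of 9 passed at 2 h, 6 h and 1 day (52, 64 and 39 genes in all; 11 at 1 week) and Maf at 6 h (-0.057) and 1 day (0.16) and Mef2c at 1 day (0.083) turned direction. Without sham 6 h libraries 1 to 4, 268 genes and 0 of 9 factors passed at 6 h (2646 and 6 with all; 257 shared in direction, 9.71% of the larger and 95.9% of the smaller set), and Irf8 turned to -0.15. The differences between times then held 73 (2 h to 6 h) and 16 genes (6 h to 1 day) and the F test 1104, and the 6 h log2 ratio of Mef2c to Mef2a turned to -0.27. Without sham 6 h libraries 5 and 6, these differences held 2371 and 1679 genes. In an alternative added after seeing the data, without these 4, the 3 shallow libraries and irradiated 1 week library 5, 0 factors and 312 genes passed at 6 h, with Irf8 at -0.15 and Spi1 at 1 day at -0.19. Spi1 at 1 day was also -0.19 without libraries under 1000000 reads, where the 1 day log2 ratio of Irf8 to Spi1 was 0.35, and -0.086 with voom. With the GC and length trend removed, Spi1 (-0.28) and Mef2c (0.052) turned direction at 6 h.

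At 1 week 2 factors passed with a filter of 20 RPM, median-of-ratios factors, voom, 1 week libraries alone, no shallow libraries, or the GC and length trend removed (Mycl with Mef2c or Irf8). The 1 week count of all genes was 255 without a filter, 930 with voom and 701 with 1 week libraries alone (461 in the main fit); the 1 day count was 435 with RPKM + 1 and 415 with 1 day libraries alone (653). Between 1 day and 1 week, 1272 genes differed with voom and 1113 without shallow libraries (664). Leaving out 1 library gave up to 3123 genes at 6 h and an Irf8 change of up to 0.49 there, 0 to 1 factors and 208 to 592 genes at 1 week, Runx1 at 2 h from -0.020 to 0.26 and Spi1 at 1 day from -0.19 to 0.47. Log2 ratios then ran from -0.25 to 0.35 (Irf8 to Spi1, 1 day), -0.69 to -0.51 (the same, 1 week), -0.088 to 0.017 (Mef2c to Mef2a, 2 h) and -0.10 to 0.012 (the same, 1 week). Cause was not tested for any of these.

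Deviations of same-numbered sham and irradiated libraries correlated weakly, at -0.172 to 0.171. At 2 h the values ran from -0.000922 to 0.171, all above the median of -0.0117 for libraries of unlike number. What same-numbered libraries of that time share was not tested. With the replicate block, 4, 7, 2 and 1 factors passed at the 4 times (Irf8 at 6 h and Mycl at 1 week were added). The shares of all genes that passed with this block are not given here, so the added calls cannot be weighed against them. Sign-flip tests of the 6 pairs for the replicate block gave the log2 ratios of Mef2c to Mef2a at 1 day (-0.39, adjusted p = 0.125) and Irf8 to Spi1 at 1 week (-0.59, 0.125) the smallest p that 6 pairs allow before adjustment, 0.0312, so these lost calls say nothing about stability. Depth limits Spi1, Cebpd and Mycl most, with as few as 3, 4 and 12 reads in a library.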
